A study of Mus musculus with 6 samples.

Results

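The mitosis and spindle genes are 40 named genes whose products carry a cell from mitotic entry to its division: transcription factors of the G2/M programme, mitotic cyclins and kinases, chromosome and kinetochore proteins, spindle checkpoint and spindle proteins, anaphase regulators and cytokinesis factors. They were chosen by name for their known roles, with earlier results of these data known, and all 40 were found among the 43629 gene IDs of the count table. A minimum-count filter left 15432 genes for testing, with all 40 among them, and no member held fewer than 312 counts in any library. The filter therefore admitted none of them through 1 group alone.

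RNA was measured by poly-A selected, stranded RNA sequencing of leukaemia cells from Cbfb-MYH11 knockin mice of strain C57BL/6 at their end point. Cbfb-MYH11 is the fusion gene of an inversion found in human acute myeloid leukaemia, and both groups carry it. Frozen marrow was thawed and sorted for c-kit before RNA was taken, so each library is a bulk population of c-kit+ marrow cells. The comparison asks how leukaemia cells with 1 f allele of Gata2 differ from those labelled Gata2+/+.

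The Gata2+/+ group has 3 libraries, with replicate numbers 3, 5 and 6, and the Gata2+/f group has 3, with replicate numbers 7, 9 and 11. What the f allele is, whether a Cre was used and the ages of the mice are not given in the sources used here. The labels do not say in words that each library is a separate mouse, so the p-values measure the spread between these samples. Library totals ran from 53789568 to 67854631 expected counts. Gata2, the gene that defines the groups, was at 886, 887 and 736 CPM (counts scaled to a common library total, with TMM factors) in the Gata2+/+ libraries and at 498, 273 and 264 CPM in the Gata2+/f libraries, with no overlap.

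In mitosis, cyclin B bound to Cdk1 drives entry, chromosomes condense, and kinetochores built on centromeres attach them to spindle microtubules. The spindle checkpoint holds the anaphase-promoting complex (APC/C) inactive until attachment is complete; the complex then marks securin and cyclin B for destruction, sister chromatids part, and the central spindle guides cytokinesis. Most of these genes are transcribed late in the cell cycle, and in bone marrow their RNAs mark cycling progenitors and leukaemia blasts.

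In the Gata2+/f libraries 39 of the 40 genes had higher mean levels than in the Gata2+/+ libraries, against 51.1% of all tested genes with a log2 fold change above 0. Pttg1, which encodes securin, was the exception. The median log2 fold change of the 40 was 1.26, a 2.39-fold difference, with quartiles at 1.04 and 1.43, beside a median of 0.02 over all tested genes. A log2 fold change above 1 was found for 31 of the 40, against 14.4% of all tested genes. Summed over the 40 genes, the level was 2059, 1093 and 1690 CPM in Gata2+/+ replicates 3, 5 and 6 and 4266, 3307 and 3016 CPM in Gata2+/f replicates 7, 9 and 11. The groups did not overlap in this sum, and Gata2+/+ replicate 5 stood lowest.

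No single member passed an adjusted p under 0.05 by the quasi-likelihood test of edgeR with Benjamini-Hochberg adjustment, and neither did any other tested gene (0.00%). The members' adjusted p-values in that test ran from 0.0955 to 0.569. At an unadjusted p under 0.05 in the same test, 35 of the 40 were higher in Gata2+/f and 0 were lower, against 11.1% and 11.5% of all tested genes. In 35 of the 40 every Gata2+/f library lay above every Gata2+/+ library, against 13.1% of all tested genes, and 0 were separated the other way, against 16.6%. These 35 and the 35 above share 33 genes. At an adjusted p under 0.1, edgeR called 15 members, all of them higher, against 2.88% of tested genes called in either direction. DESeq2 called 31 members higher and 0 lower at an adjusted p under 0.05, against 6.16% and 5.70% of tested genes, while limma voom (0.0518% of tested genes called higher, 0.00648% lower) and the newer form of edgeR's test (0.0842% and 0.123%) each called 0. In bulk RNA, more cells in mitosis and more of these transcripts per cell cannot be told apart.

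**Figure D1:**
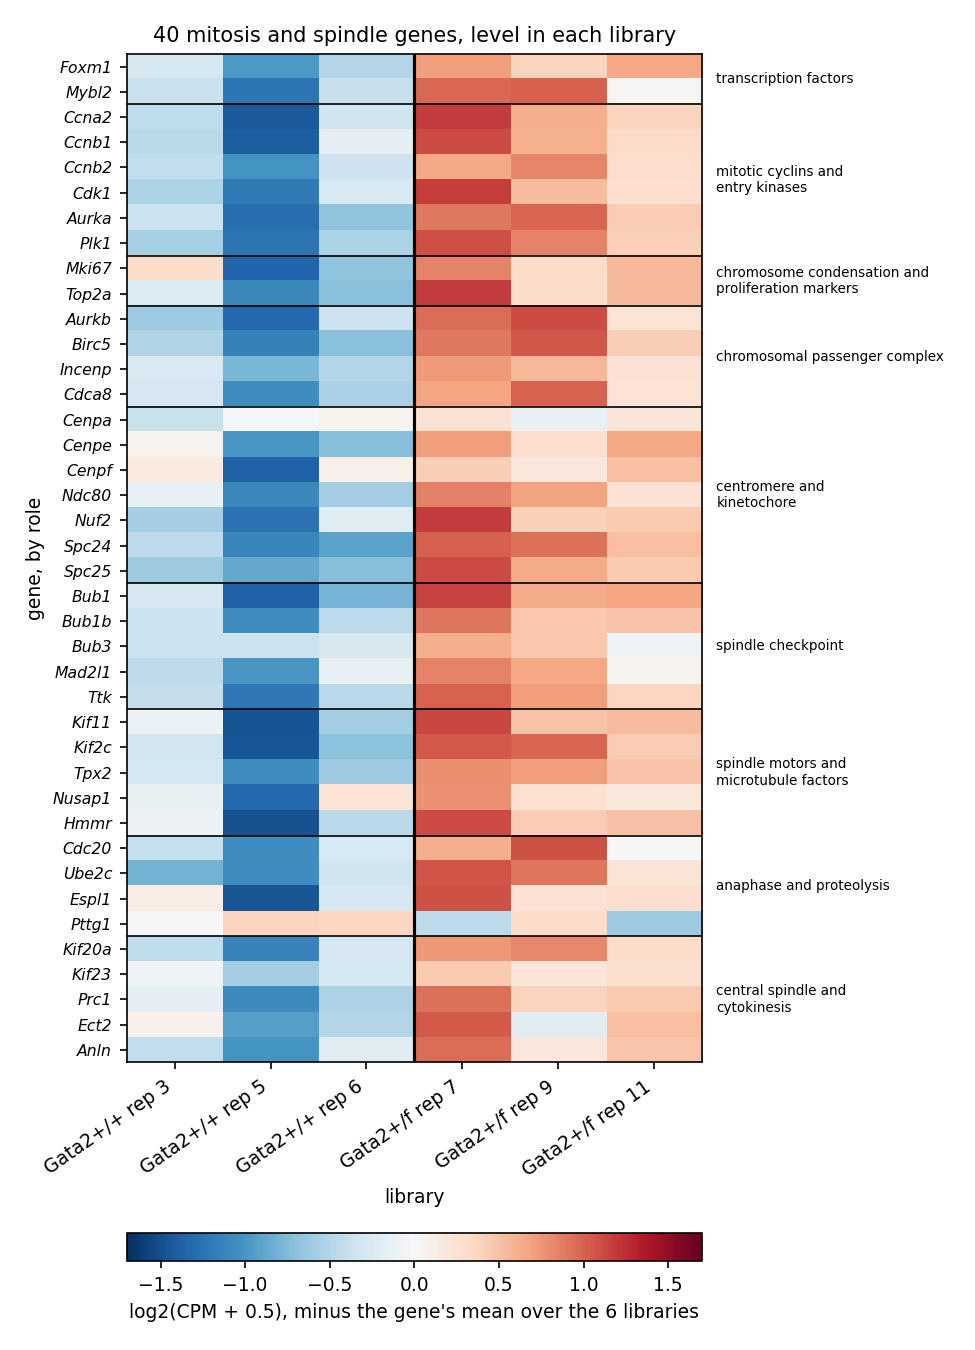
Each row is 1 of the 40 genes grouped by role and each column 1 library; colour is log2(CPM + 0.5) minus the mean of that gene over the 6 libraries. Gata2+/+ replicate 5 is the darkest blue column and Gata2+/f replicate 7 the darkest red, and Pttg1 and Cenpa do not follow the pattern of the other rows.

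The members varied together across libraries as well as between groups. Gata2+/+ replicate 5 was the lowest of the 6 libraries for 37 members, and Gata2+/f replicate 7 was the highest for 30. Replicate 9 was the highest of the 6 for 8 more. Within the Gata2+/f group, replicate 11 was the lowest for 24 members and replicate 9 for 16. The median coefficient of variation of a member was 30.0% over the Gata2+/+ libraries and 23.3% over the Gata2+/f libraries. The 40 genes lie on 15 chromosomes. Over all tested genes of each chromosome, members included, the median log2 fold change ran from -0.30 to 0.20. The median of the members' log2 fold changes less that of their own chromosome was 1.27.

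Sequences upstream of the members were searched because G2/M genes commonly carry the cell cycle genes homology region (CHR) and CCAAT boxes, which bind the DREAM and MuvB complexes and NF-Y. RefSeq promoters on GRCm38.p6, 250 bases before to 50 after each start, were matched by symbol for 33 members, 3 of them with a second start, giving 36 promoters. The letters searched on both strands were TTTGAA and, as the other form, TTCGAA for CHR, the 5 letters CCAAT for the CCAAT box, and, for a GATA site, GATAA and also GATAG preceded by either A or T; 3 pairs of sites of different motifs overlapped in the members' promoters. CHR letters were present in 28 of the 36 member promoters (77.8%) and in 19.2% of 32851 promoters of all genes. CCAAT was present in 75.0% of member promoters and 37.4% of all, and both stood in 69.4% of member promoters and 7.53% of all. GATA letters were present in 33.3% of member promoters and 29.8% of all. Counted by gene, CHR letters were present in 25 of the 33 members, CCAAT in 24, both in 22 and GATA letters in 10. Over all 27025 genes the counts were 5854, 11096, 2328 and 8930. Among promoters of tested genes, the shares were 14.3% for CHR, 37.7% for CCAAT, 5.91% for both and 19.7% for GATA. These matches describe the letters only.

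Below are the 250 bases upstream of 4 members, the 4 of smallest p whose upstream stretch holds CHR letters and lies outside annotated exons. They are shown as examples of the shared letters, with CHR and CCAAT matches of either strand in capitals (TTCAAA is the other strand's form of TTTGAA and ATTGG that of CCAAT). Bub1b lies at chr2:118597961-118598210 on the plus strand, and Kif2c at chr4:117178773-117179022, Ccnb2 at chr9:70421555-70421804 and Top2a at chr11:99024190-99024439 on the minus strand, all on GRCm38.p6 from RefSeq.
Bub1b: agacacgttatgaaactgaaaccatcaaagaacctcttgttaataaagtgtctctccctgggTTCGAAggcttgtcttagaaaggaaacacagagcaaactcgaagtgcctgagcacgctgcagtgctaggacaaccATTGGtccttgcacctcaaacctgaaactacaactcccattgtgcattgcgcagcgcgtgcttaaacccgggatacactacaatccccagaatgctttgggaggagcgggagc
Kif2c: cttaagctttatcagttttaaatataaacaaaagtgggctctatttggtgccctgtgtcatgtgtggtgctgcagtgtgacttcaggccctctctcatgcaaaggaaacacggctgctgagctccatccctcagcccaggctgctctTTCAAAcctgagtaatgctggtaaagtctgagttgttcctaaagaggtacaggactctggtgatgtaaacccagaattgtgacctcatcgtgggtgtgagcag
Ccnb2: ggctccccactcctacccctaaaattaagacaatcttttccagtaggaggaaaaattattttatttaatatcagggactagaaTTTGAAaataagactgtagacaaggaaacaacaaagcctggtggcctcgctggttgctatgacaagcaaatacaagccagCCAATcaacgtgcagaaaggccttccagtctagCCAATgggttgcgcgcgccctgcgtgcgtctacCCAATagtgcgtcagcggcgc
Top2a: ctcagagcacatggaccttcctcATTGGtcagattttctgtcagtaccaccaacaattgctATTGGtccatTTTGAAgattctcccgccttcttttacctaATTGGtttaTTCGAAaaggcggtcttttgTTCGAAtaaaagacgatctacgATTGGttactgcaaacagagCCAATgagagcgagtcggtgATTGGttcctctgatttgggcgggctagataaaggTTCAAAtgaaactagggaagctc
Counted from the transcription start, CHR letters in these stretches begin at position -188 in Bub1b, -103 in Kif2c and -167 in Ccnb2. In the 50 bases after the start, which were searched but are not printed, CHR letters also begin at position 41 in Bub1b and 5 in Ccnb2. The stretch of Top2a holds 4 CHR matches and 6 CCAAT matches, that of Ccnb2 holds 3 CCAAT matches, and that of Kif2c holds none. Over all 36 member promoters, the median first base of a CHR match was at -16.5 and that of a CCAAT match at -69.5. Sites of the 3 members with a second start can enter these medians more than once, counted from each start.

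Transcription factors of the G2/M programme were both higher in every Gata2+/f library. Foxm1, a forkhead factor that activates G2/M genes, was at 25.7, 15.6 and 21.9 CPM in Gata2+/+ and at 51.4, 40.8 and 49.3 CPM in Gata2+/f. The groups did not overlap, and the log2 fold change was 1.16 (SE 0.27, adjusted p = 0.0991 in edgeR). Mybl2, the B-Myb factor that joins MuvB to activate these genes, was at 39.9, 21.9 and 39.7 CPM in Gata2+/+ and at 103, 106 and 52.8 CPM in Gata2+/f. Its lowest Gata2+/f library, replicate 11, stood above all 3 Gata2+/+ libraries, and the log2 fold change was 1.36 (SE 0.36, edgeR adjusted p = 0.121).

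All 6 mitotic cyclins and entry kinases were higher in Gata2+/f without overlap, with a median log2 fold change of 1.39. Plk1, the polo-like kinase of mitotic entry and spindle assembly, was at 17.1, 10.5 and 17.3 CPM in Gata2+/+ and at 54.9, 46.0 and 33.9 CPM in Gata2+/f (15.0 ± 3.89 against 44.9 ± 10.6, SD, n = 3). The lowest Gata2+/f library stood well above the highest Gata2+/+ library, and the log2 fold change was 1.59 (SE 0.31, edgeR adjusted p = 0.0966). Aurka, the Aurora kinase of the spindle poles, was at 16.9, 8.73 and 13.5 CPM against 41.3, 44.1 and 29.8 CPM, a log2 fold change of 1.56 (SE 0.33, edgeR adjusted p = 0.0966). Ccnb2, cyclin B2, was at 31.6, 20.6 and 33.2 CPM against 66.9, 75.6 and 52.0 CPM, a log2 fold change of 1.19. Ccnb1, cyclin B1, had the largest p of the 6 and was still separated, at 34.9, 17.8 and 42.5 CPM against 104, 73.1 and 60.0 CPM (log2 fold change 1.32, SE 0.37, edgeR adjusted p = 0.129). Ccna2, cyclin A2, and Cdk1, the catalytic partner of these cyclins, had log2 fold changes of 1.44 and 1.35.

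Of the chromosome and proliferation markers, Top2a was separated and Mki67 was not. Top2a, the topoisomerase that untangles chromosomes, was at 169, 92.8 and 121 CPM in Gata2+/+ and at 453, 248 and 292 CPM in the Gata2+/f libraries, a log2 fold change of 1.37 (SE 0.33, edgeR adjusted p = 0.104). Mki67, which encodes the Ki-67 proliferation antigen that coats mitotic chromosomes, was at 557, 176 and 279 CPM in Gata2+/+ and at 806, 554 and 658 CPM in Gata2+/f. Gata2+/+ replicate 3 lay just above Gata2+/f replicate 9, and the log2 fold change was 1.0 (SE 0.43, edgeR adjusted p = 0.221). It was 1.62 without Gata2+/+ replicate 3 and 0.68 without Gata2+/+ replicate 5.

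The chromosomal passenger complex, which corrects wrong attachments of chromosomes to the spindle and later directs cytokinesis, was higher in all 4 subunits without overlap, with a median log2 fold change of 1.40. Birc5, survivin, had the smallest p of the 40 and was at 29.4, 18.6 and 25.6 CPM in Gata2+/+ and at 78.5, 87.7 and 56.5 CPM in the Gata2+/f libraries, a log2 fold change of 1.6 (SE 0.28, edgeR adjusted p = 0.0955). Aurkb, the kinase of the complex, was at 26.7, 16.1 and 32.1 CPM against 79.7, 88.8 and 48.5 CPM, a log2 fold change of 1.53. In both genes Gata2+/f replicate 9 was highest and Gata2+/+ replicate 5 lowest. Cdca8, borealin, was at 49.2, 28.8 and 40.9 CPM against 95.8, 121 and 70.7 CPM, a log2 fold change of 1.28. Incenp, the scaffold of the complex, was at 69.1, 48.2 and 58.7 CPM against 137, 123 and 98.5 CPM, a log2 fold change of 1.03.

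**Figure D2:**
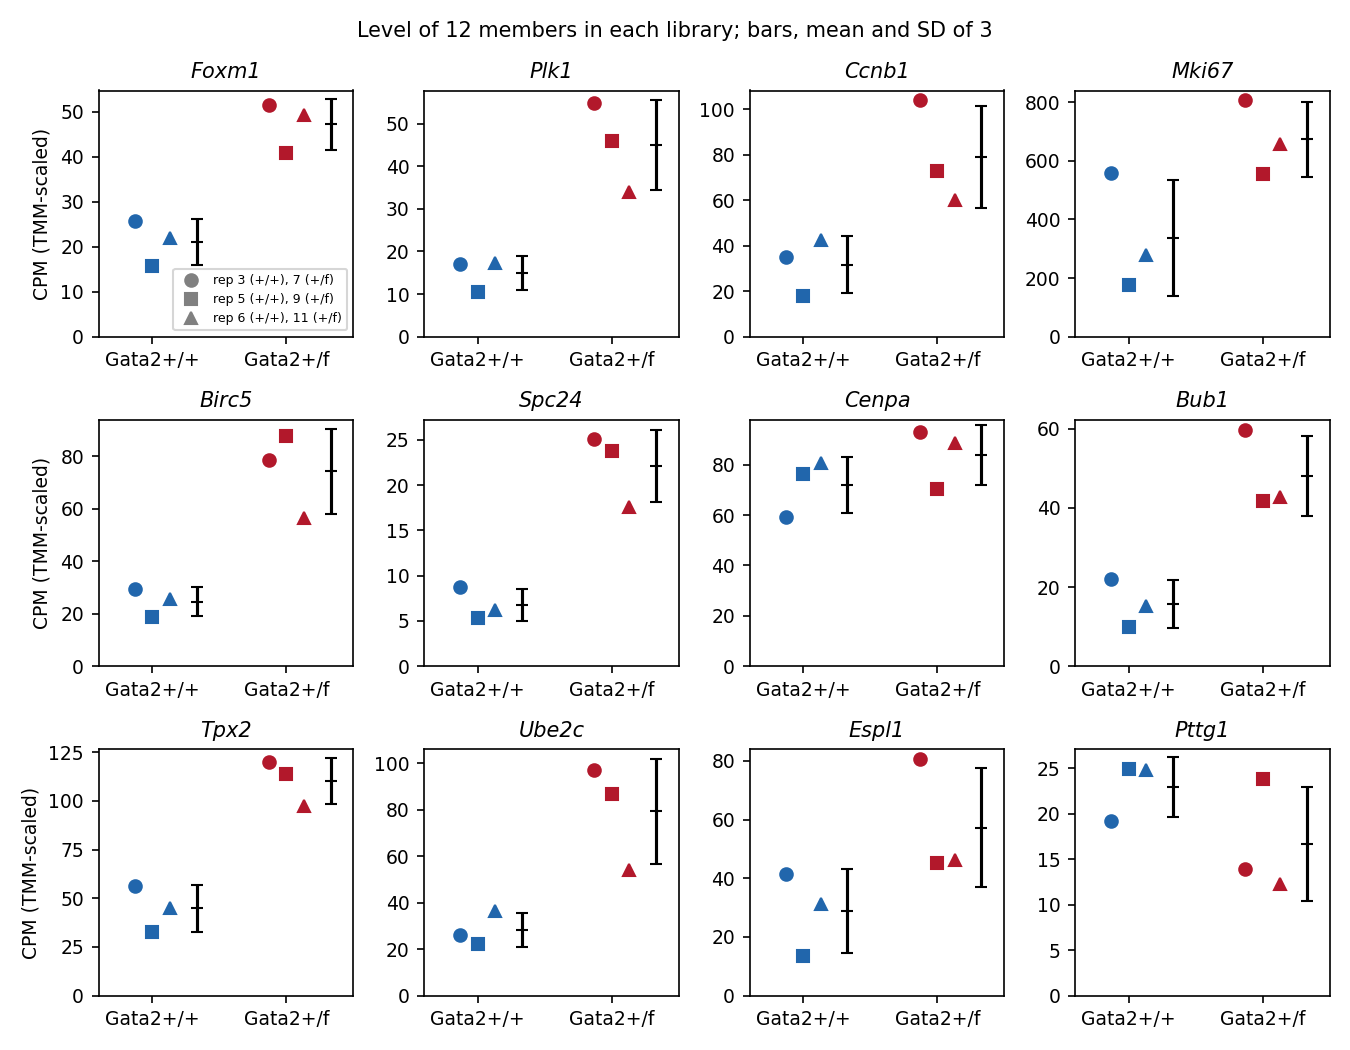
Points are TMM-scaled CPM of 12 members in each library (blue, Gata2+/+; red, Gata2+/f; shared marker shapes do not pair libraries), and the black bars are the mean and SD of 3 libraries. Plk1, Birc5, Spc24, Bub1 and Tpx2 show a gap between the groups, Cenpa, Mki67 and Pttg1 overlap, and Espl1 is separated by a narrow gap.

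Centromere and kinetochore genes differed among themselves: 5 of the 7 were higher at an unadjusted p under 0.05 in edgeR, and Cenpa and Cenpf were not. Spc24 and Spc25, subunits of the Ndc80 complex that grips microtubules, had log2 fold changes of 1.71 and 1.54. Spc24 was at 8.77, 5.38 and 6.21 CPM in Gata2+/+ and at 25.1, 23.8 and 17.6 CPM in the Gata2+/f libraries (SE 0.33, edgeR adjusted p = 0.0966), the highest log2 fold change of the 40. Spc25 was at 7.67, 6.31 and 7.04 CPM against 26.3, 18.6 and 16.3 CPM. In both genes replicate 11 was the lowest Gata2+/f library and still lay clear of every Gata2+/+ library. The 2 other subunits of that complex followed: Nuf2 was at 15.5, 9.53 and 20.1 CPM against 53.7, 31.1 and 31.8 CPM (log2 fold change 1.37), and Ndc80 had a log2 fold change of 1.20.

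Cenpa, the histone H3 variant that marks centromeres, was at 59.3, 76.2 and 80.5 CPM in Gata2+/+ and at 92.8, 70.5 and 88.7 CPM in Gata2+/f. The groups overlapped, with a log2 fold change of 0.22 (SE 0.22) whose 95% interval ran from -0.29 to 0.74, and the edgeR adjusted p was 0.569. The value was 0.38 without Gata2+/f replicate 9, 0.34 without Gata2+/+ replicate 6 and 0.15 without Gata2+/+ replicate 3. Gata2+/+ replicate 5, the lowest library for 37 members, was not low for Cenpa. The kinetochore motor Cenpe had a log2 fold change of 1.06. Cenpf, a large outer kinetochore protein, had 0.61 (0.25 without Gata2+/+ replicate 5 and 0.92 without Gata2+/+ replicate 3). Its groups, at 36.2, 12.1 and 34.5 CPM against 43.4, 36.9 and 46.4 CPM, were separated only by a narrow gap (edgeR adjusted p = 0.393).

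The spindle checkpoint genes were all 5 higher in Gata2+/f without overlap. Bub1, the checkpoint kinase, was at 21.9, 9.97 and 15.3 CPM in Gata2+/+ and at 59.7, 41.6 and 42.7 CPM in the Gata2+/f libraries, a log2 fold change of 1.61 (SE 0.34, edgeR adjusted p = 0.0966). Bub1b, BubR1 of the mitotic checkpoint complex, was at 59.4, 36.4 and 56.3 CPM against 145, 106 and 108 CPM, a log2 fold change of 1.24. Ttk, the Mps1 kinase that starts the signal, was at 9.65, 5.31 and 9.29 CPM against 26.5, 21.6 and 16.9 CPM, a log2 fold change of 1.42. These 3 had every Gata2+/f library well clear of the highest Gata2+/+ library. Bub3, a checkpoint adaptor, had the smallest difference of the class, at 69.4, 69.7 and 74.5 CPM against 137, 123 and 85.8 CPM (log2 fold change 0.70, SE 0.23, edgeR adjusted p = 0.156). Its Gata2+/+ libraries were close together, with an SD of 2.84 CPM, and its Gata2+/f libraries had an SD of 26.6 CPM. Mad2l1, which encodes Mad2, the inhibitor of Cdc20, had a log2 fold change of 1.05.

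Among spindle motors and microtubule factors, 4 of the 5 were higher at an unadjusted p under 0.05 in edgeR, and Nusap1 was not. Tpx2, the activator of Aurora A on the spindle, was at 56.5, 32.7 and 45.2 CPM in Gata2+/+ and at 120, 114 and 97.2 CPM in the Gata2+/f libraries, a log2 fold change of 1.3 (SE 0.25, edgeR adjusted p = 0.0966). Kif2c, a kinesin that takes microtubules apart, was at 14.9, 6.48 and 11.3 CPM against 38.8, 37.5 and 25.3 CPM, a log2 fold change of 1.64. Kif11, the motor that pushes spindle poles apart, was at 76.5, 29.4 and 54.8 CPM against 182, 115 and 120 CPM, a log2 fold change of 1.38. Gata2+/+ replicate 5 was the lowest library of all 3 genes. Nusap1, which bundles spindle microtubules, was at 48.7, 20.8 and 62.5 CPM against 91.4, 63.8 and 60.0 CPM. Gata2+/+ replicate 6 lay above Gata2+/f replicate 11, and the log2 fold change was 0.70 (SE 0.40, edgeR adjusted p = 0.330), or 0.36 without Gata2+/+ replicate 5 and 1.09 without Gata2+/+ replicate 6. Hmmr, which encodes a spindle-bound hyaluronan receptor, had a log2 fold change of 1.3.

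The anaphase genes were the class in which members differed most. Ube2c, the ubiquitin-conjugating enzyme of the APC/C, was at 26.1, 22.0 and 36.5 CPM in Gata2+/+ and at 97.1, 86.7 and 53.8 CPM in the Gata2+/f libraries, a log2 fold change of 1.49 (SE 0.31, edgeR adjusted p = 0.0966). Cdc20, the APC/C activator, was at 34.3, 21.6 and 37.6 CPM against 69.5, 95.8 and 45.6 CPM, a log2 fold change of 1.17. Neither overlapped between groups, and replicate 11 was the lowest Gata2+/f library in both. Espl1, separase, which cuts cohesin at anaphase, was at 41.6, 13.5 and 31.2 CPM against 80.5, 45.2 and 46.2 CPM, separated by a narrow gap. Its log2 fold change was 0.99 (SE 0.44, edgeR adjusted p = 0.231), with 1.42 without Gata2+/+ replicate 3 and 0.65 without Gata2+/+ replicate 5. Espl1 is on chromosome 15. Its tested genes with a mean log2(CPM + 0.5) of at least 3 were each centred on their median over the 6 libraries. The chromosome's median log2 deviation was then 0.34, -0.13 and 0.36 in Gata2+/+ and -0.02, -0.12 and -0.23 in Gata2+/f. The part of that in the Espl1 values was not tested.

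Pttg1, securin, the inhibitor that holds separase until anaphase, was at 19.2, 24.9 and 24.8 CPM in Gata2+/+ and at 13.9, 23.8 and 12.2 CPM in Gata2+/f (23.0 ± 3.29 against 16.7 ± 6.28, SD, n = 3). Gata2+/f replicate 9 lay within the Gata2+/+ range, and the log2 fold change, with its 95% interval from -1.24 to 0.31, was -0.46 (SE 0.33, edgeR adjusted p = 0.424). The value was -0.76 with replicate 9 of that group left out and -0.25 with replicate 11 left out. Gata2+/+ replicate 5 was the highest of the 6 libraries for Pttg1, and the lowest for 37 of the other members.

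The central spindle and cytokinesis genes were higher in Gata2+/f in all 5 cases, 4 of them without overlap. Kif20a, the kinesin that carries the passenger complex to the central spindle, was at 28.2, 17.2 and 31.2 CPM in Gata2+/+ and at 64.3, 68.1 and 47.6 CPM in the Gata2+/f libraries, a log2 fold change of 1.23 (SE 0.30, edgeR adjusted p = 0.104). Prc1, which bundles antiparallel microtubules, was at 45.0, 23.6 and 34.7 CPM against 96.7, 65.6 and 68.8 CPM, a log2 fold change of 1.16. Anln, anillin, which organises the contractile ring, was at 20.8, 13.6 and 24.6 CPM against 54.4, 32.2 and 39.0 CPM, a log2 fold change of 1.09. All 3 were separated between the groups. Ect2, the exchange factor that activates RhoA at the cleavage site, was at 24.1, 11.8 and 16.1 CPM against 48.0, 20.0 and 32.9 CPM, and Gata2+/f replicate 9 lay below Gata2+/+ replicate 3 (log2 fold change 0.96, SE 0.41, edgeR adjusted p = 0.218). Kif23, the motor of the centralspindlin complex, had a log2 fold change of 0.63 with a 95% interval from 0.10 to 1.15.

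**Figure D3:**
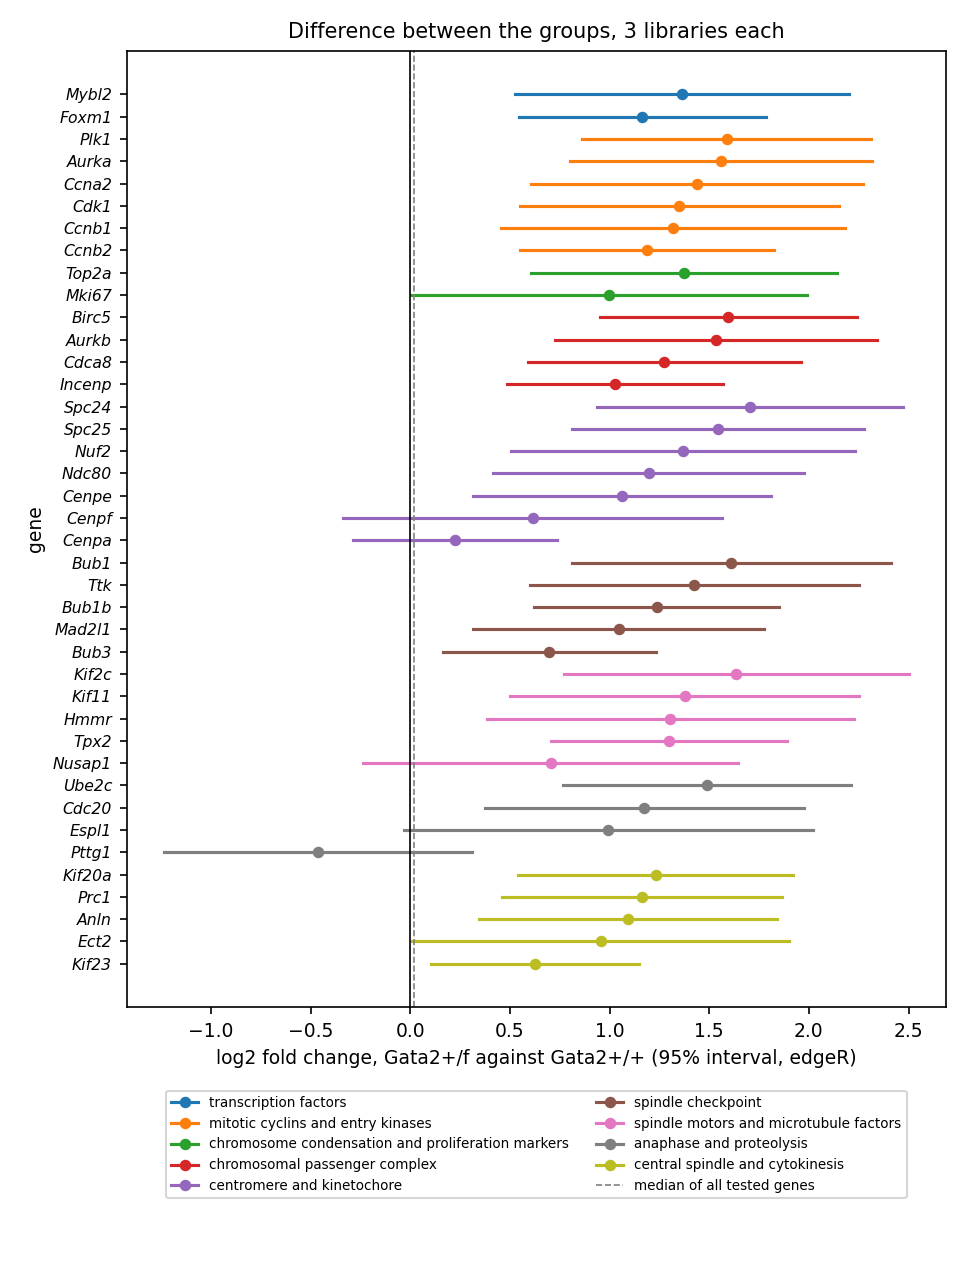
Points are log2 fold changes of Gata2+/f against Gata2+/+ for the 40 genes, coloured by role, with 95% intervals from edgeR; the dashed line is the median of all tested genes, 0.02. The intervals of Cenpa, Cenpf, Nusap1, Espl1 and Pttg1 contain 0, and 38 of the 40 contain 1.

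Each interval describes 1 member against the spread between libraries. The members varied together across libraries, so the intervals do not measure how far members differ from each other. Of the 40, 38 have a 95% interval that contains a log2 fold change of 1, and Cenpa and Pttg1 are the pair whose intervals lie below it. The members differed in level per exon length. The highest means over the 6 libraries were 50.2 CPM per kb for Mki67, 30.5 for Ccnb2, 27.2 for Cdc20 and 25.5 for Top2a. The lowest were Ttk at 3.03 and Cenpf at 2.26 CPM per kb. Reads of some members may be shared with other genes, as judged by 50-base words matched on either strand. Of the words of Kif20a, 25.2% also occur in Cdc23, an opposite-strand gene whose exons overlap those of Kif20a. Of the words of Ccnb1, 23.4% occur in its pseudogenes and other genes. The share was over 10% in 7 members: Kif20a, Ccnb1, Mybl2, Ube2c, Ccna2, Cdc20 and Plk1. In 7 members exons overlap an opposite-strand gene that is also in the count table: Kif20a, Ccna2, Cdc20, Cdca8, Nusap1, Prc1 and Ube2c. Total counts of the overlapping gene ran from 20 for Tnnc2, at Ube2c, to 59234 for Elovl1, at Cdc20, which itself held 19099. Whether counting used strand is not given in the sources used here, so the values of these 7 members are less certain.

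Other genes of mitosis were read from 9 lists that hold 120 genes, all of them tested. Of these, 95 had a log2 fold change above 0, against 51.1% of all tested genes, and the median was 0.62. With edgeR's unadjusted p under 0.05, 52 were higher and 5 lower in Gata2+/f (background 11.1% and 11.5%), and at an adjusted p under 0.05 edgeR called 0. The groups did not overlap for 50 higher and 6 lower genes (background 13.1% and 16.6%), and DESeq2 called 24 higher and 2 lower (background 6.16% and 5.70%), while limma voom and the newer form of edgeR's test called 0.

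The lists nearest to the 40 in role had medians from 0.84 to 1.08. Mitotic entry regulators had a median log2 fold change of 0.84, with 9 of 16 higher at edgeR's unadjusted p under 0.05 (background 11.1%). Ccnf, cyclin F, was at 1.93, Cks1b, a Cdk1 accessory protein, at 1.33, and Wee1, the kinase that holds Cdk1 inactive, at -1.10 with overlapping groups. Other kinetochore and centromere genes had a median of 0.86, with 16 of 26 higher. Cenph and Cenpi of the inner kinetochore were at 1.17 and 1.42, and Zwint was at -0.35. Other checkpoint and centromeric cohesion genes had a median of 0.99, with 8 of 9 higher. Zwilch was at 1.35, Trip13, the remodeller of Mad2, at 1.24, and Mad2l1bp, its adaptor, at -0.59.

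Other spindle genes had a median log2 fold change of 1.08, with 9 of 16 higher and 1 of 16 lower at that p (background 11.1% and 11.5%). Kif22 was at 1.35 and Tacc3 at 1.25, and Numa1, which anchors microtubules at the spindle poles, was at -0.56. Other cytokinesis genes had a median of 0.88, with 3 of 7 higher. Shcbp1 was at 2.24, Cep55, which recruits the abscission machinery, at 1.56 and Depdc1b at -0.33. Condensin, which compacts chromosomes, had a median of 0.97, with 4 of 8 higher. Ncapd2 and Ncaph, both of condensin I, were at 1.10 and 1.22, and Ncaph2 of condensin II was at -0.11.

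The lists of cohesin, APC/C subunits and the DREAM and MuvB genes had medians nearer 0. Cohesin and its regulators had a median log2 fold change of -0.20, with 1 of 12 higher and 1 of 12 lower at that p. Nipbl, the cohesin loader, was at 476, 261 and 392 CPM in Gata2+/+ and at 165, 72.7 and 191 CPM in Gata2+/f, without overlap (log2 fold change -1.40), and Cdca5, sororin, which locks sister cohesion, was at 1.18. APC/C subunits had a median of 0.16, with 1 of 16 higher and 2 lower, and the lower ones were Anapc15 at -1.02 and Anapc16 at -0.89. The DREAM and MuvB genes had a median of 0.27, with 1 of 10 higher and 1 lower: Rbl2, the p130 pocket protein of the repressor form, was at -1.19, and Tfdp1, the E2F partner, at 1.03. In each of these lists the counts at that p were near the shares over all tested genes, 11.1% higher and 11.5% lower. Differences between these lists were not tested.

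**Figure D4:**
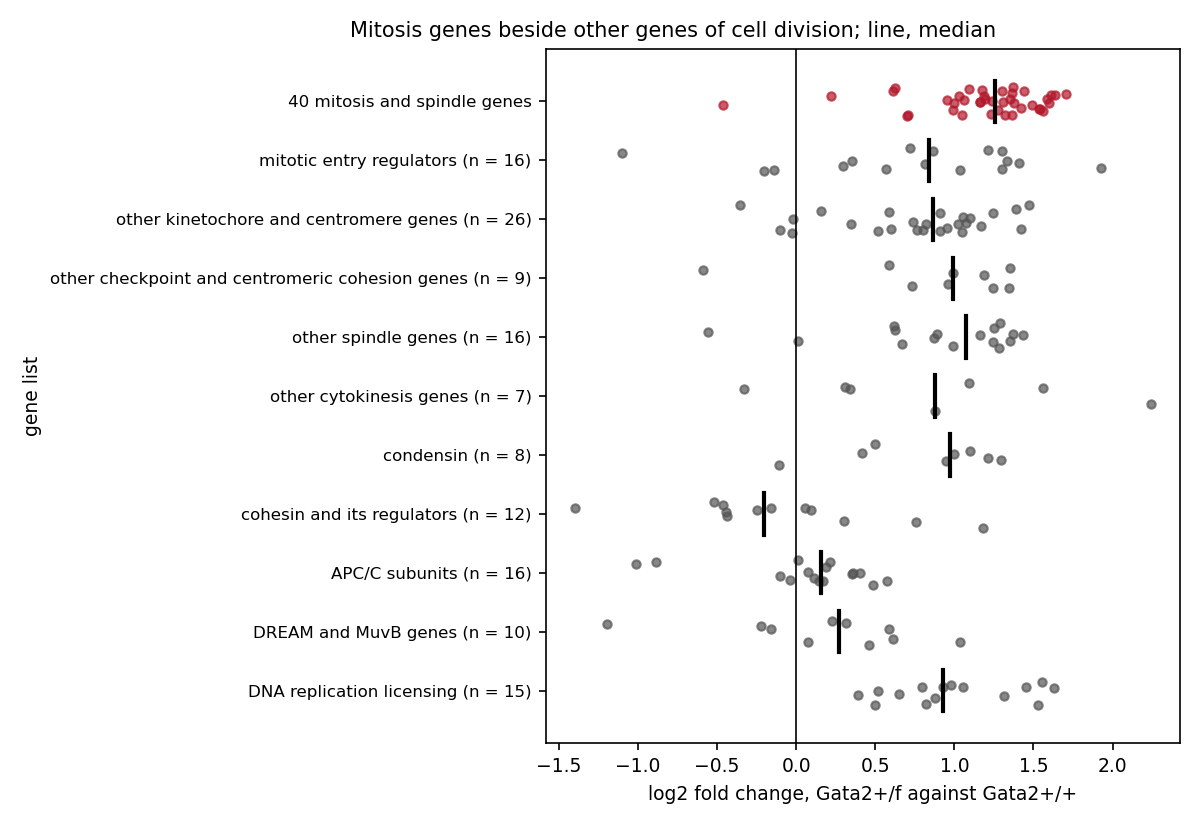
Points are log2 fold changes of single genes, Gata2+/f against Gata2+/+, in the 40 mitosis and spindle genes (red), the 9 lists of other mitosis genes and the DNA replication licensing genes (grey); vertical bars are list medians. The 40 have the rightmost median, 1.26, and cohesin, APC/C and the DREAM and MuvB genes have medians of -0.20, 0.16 and 0.27.

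Markers of other cell types differed between the same groups, in which 51.1% of all tested genes had a log2 fold change above 0. Of 13 late neutrophil markers, 13 were higher in Gata2+/f, and their sum was 154 to 449 CPM in Gata2+/+ and 4034 to 8067 CPM in Gata2+/f. Of 11 monocyte and macrophage markers, 11 were higher, with sums of 456 to 1376 CPM against 1550 to 4779 CPM. Of 10 mast cell and basophil markers tested, 9 were lower, with sums over all 11 of 9134 to 10875 CPM against 920 to 3564 CPM. At an unadjusted p under 0.05 in edgeR, 5 were lower (background 11.5%). The remaining 1 went the other way, with a log2 fold change of 2.88 at an unadjusted p under 0.05 in edgeR and no overlap. Tpsab1, a mast cell tryptase, was at 0 in all 3 Gata2+/f libraries. By counting error alone, a count of 0 allows up to 3 counts, which are 0.0442 to 0.0558 CPM of the Gata2+/f totals. The part of these populations in the mitosis gene levels was not tested.

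The other lists had 6 of 11 erythroid markers higher, with sums of 6291 to 10393 CPM against 1464 to 6505 CPM, and 3 of 6 megakaryocyte markers higher, with sums of 583 to 755 CPM against 45.7 to 197 CPM. B lineage markers summed to 3.46 to 9.65 CPM against 15.7 to 24.3 CPM, with 5 of 5 tested higher, and T and NK markers to 10.6 to 42.6 CPM against 22.2 to 107 CPM, with 5 of 5 tested higher and Ncr1 at 0 in all Gata2+/+ libraries (3 counts are 0.0447 to 0.0526 CPM there). Markers of the sorted myeloid progenitor were present in all libraries, at sums of 1864 to 4448 CPM and 2575 to 10773 CPM, with 6 of 8 higher. Of these markers 2 were higher at an unadjusted p under 0.05 in edgeR, and 0 were higher without overlap. The largest sum was that of Gata2+/f replicate 9, while replicates 7 and 11, at 2575 and 3272 CPM, lay within the Gata2+/+ range. Kit, which encodes the c-kit of the sort, was lower without overlap, at 826, 1221 and 1465 CPM in Gata2+/+ and at 193, 175 and 328 CPM in Gata2+/f.

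**Figure D5:**
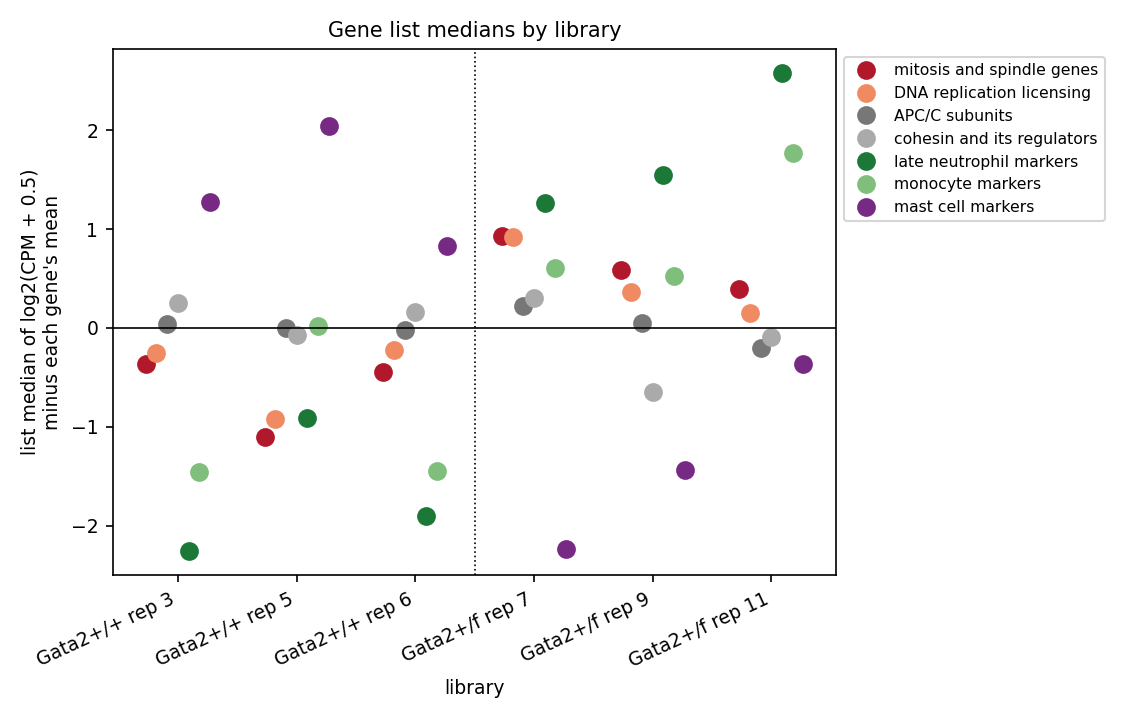
Each point is the median of a gene list in 1 library, as log2(CPM + 0.5) minus the mean of each gene over the 6 libraries. The mitosis and spindle genes (red) stand at -0.36, -1.10 and -0.45 in Gata2+/+ and at 0.93, 0.59 and 0.39 in Gata2+/f, while the late neutrophil markers (dark green) are highest, at 2.58, in Gata2+/f replicate 11.

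By library, the median deviation of the 40 genes was highest in Gata2+/f replicate 7 at 0.93 and lowest among the Gata2+/f libraries in replicate 11 at 0.39. The late neutrophil median stood the other way round, at 1.26 in replicate 7, 1.55 in replicate 9 and 2.58 in replicate 11. Among the Gata2+/+ libraries, replicate 5 had the lowest mitosis median, -1.10, and the highest late neutrophil and monocyte medians, at -0.91 and 0.02. With 3 libraries in a group these orders carry no test.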

How the data were processed

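Poly-A RNA from thawed, c-kit sorted marrow was sequenced in 6 libraries. Per the submitters' processing notes the tools were CASAVA 1.8.2, STAR 2.5.4a and RSEM 1.3.0 with build GRCm38; annotation release and strand setting are not given in the sources used here. The authors deposited RSEM expected counts per gene, of which 11.7% were not whole; these were rounded here. Genes were filtered with filterByExpr (minimum count 10), scaled by TMM (factors 0.821 to 1.11) and tested with edgeR 4.0.16 (R 4.3.3) by its quasi-likelihood test, two-sided, Gata2+/f against Gata2+/+, with Benjamini-Hochberg adjustment over 15432 genes; the common biological coefficient of variation was 0.4835. CPM values are TMM-scaled. Alternatives were DESeq2 1.42.0, limma 3.58.1 voom, other scalings and filters, and leaving out each library. No 2 libraries were duplicates.

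The members and gene lists were chosen with earlier results of these data known. All members were named, and in each role class the 3 smallest-p genes and the 1 of largest p were given by library; in related lists the 2 of smallest p and the lowest log2 fold change were named. Promoters came from RefSeq, and exon lengths and overlaps from GENCODE gene models of GRCm38. One erythroid marker, Ahsp, was not analysed here.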

Additional observations from a re-analysis of the deposited data

How the results depend on the processing

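At an adjusted p under 0.05, the count of mitosis genes called was 0 in edgeR and 31 in DESeq2. At an adjusted p under 0.1 it was 15 in edgeR. For the 120 related genes edgeR called 0 and DESeq2 26 at an adjusted p under 0.05. Over all tested genes, edgeR called 0.00% at 0.05 and 2.88% at 0.1, and DESeq2 called 6.16% higher and 5.70% lower at 0.05. The cause of the difference between the tools was not tested. The count of mitosis genes called at an adjusted p under 0.05 was 0 for limma voom, with or without quality weights. It was also 0 for the newer and the robust form of edgeR's test, and for the other scalings, filters and left-out libraries run. Over all tested genes these settings called from 0 to 66. The most, 10 higher and 56 lower of 15782, were called without Gata2+/f replicate 11. Over all alternatives the number of members higher at an unadjusted p under 0.05 was 31 to 36. The number of all tested genes at that p, in either direction, was 2146 of 16015 without Gata2+/+ replicate 3, the fewest. DESeq2 had the most, 4087 of 15432. The number of members not overlapping was 35 to 37 for the other scalings and filters, and 35 to 39 with 1 library left out. Fewer libraries have to be separated when 1 is left out, which by itself can raise that number. The left-out values are therefore no check of the separation, and the share over all tested genes is not given for them. The choice of test does not enter that number, so it has no value there. Leaving out 1 library at a time moved the members' median log2 fold change from 1.02 (without Gata2+/+ replicate 5) to 1.47 (without Gata2+/+ replicate 3). Upper quartile factors moved the median of all genes to 0.11 and that of the members to 1.37, and the higher share of all genes with unadjusted p under 0.05 from 49.3% to 58.3%. No member changed sign under any alternative run. The smallest member count in any library was 312, above the minimum count of 10 in the filter; how depth limits these values was not tested. No paired analysis was possible because the groups share no replicate number.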

Other observations

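DNA replication licensing genes, which load and fire the replicative helicase before mitosis, had log2 fold changes above 0 in 15 of 15 cases, with a median of 0.93; 9 were higher at an unadjusted p under 0.05 by edgeR (background 11.1%). Gins1, a helicase cofactor, was at 8.33, 5.26 and 7.02 CPM in Gata2+/+ and at 22.3, 22.1 and 15.1 CPM in the Gata2+/f libraries, a log2 fold change of 1.53. Mcm2 and Mcm5, of the helicase ring, were at 0.93 and 1.31, and Pcna, the polymerase clamp, was at 0.39. Genes of early G1 and quiescence were mixed, with 6 of 11 above 0 and a median of 0.04. Cdkn1b, the p27 inhibitor of cyclin-dependent kinases, was at 137, 153 and 200 CPM in Gata2+/+ and at 69.9, 64.0 and 90.6 CPM in the Gata2+/f libraries, a log2 fold change of -1.13 without overlap, and Ccnd1, cyclin D1, was at 1.98, 2.30 and 1.67 CPM against 7.78, 3.12 and 10.2 CPM. These genes were chosen for mention after their values were seen.

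The ratio of Ccnb1 to Cdk1, both chosen after their values were seen, was 1.09, 0.890 and 1.09 in Gata2+/+ and 0.979, 1.07 and 1.06 in Gata2+/f. The ratio of Pttg1 to Espl1, the inhibitor and the protease of anaphase, was 0.461, 1.85 and 0.794 in Gata2+/+ and 0.173, 0.528 and 0.265 in Gata2+/f, so the groups overlapped. These are ratios of CPM not scaled for length, and no test was run on them.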
